A study of Mus musculus with 24 samples.

Results

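Deschloroclozapine (DCZ) was compared with saline in the interscapular brown fat of wild-type (WT) mice, the animals without Cre in this design, so the comparison addresses what the ligand alone does. The comparison takes 12 of the 24 RNA-seq libraries of the series, chosen by their labels: 6 WT mice given DCZ (library numbers 1, 3, 4, 5, 6 and 10) and 6 given saline (2, 7, 8, 9, 11 and 12). All were C57Bl/6J mice aged 6 to 8 months, with 3 males and 3 females in each group, and the tissue was collected 30 minutes after treatment. The other 12 libraries come from Th-Cre mice given DCZ or saline, in which Cre recombinase is driven by tyrosine hydroxylase regulatory sequence. These libraries enter below only to share the estimate of the spread and for the comparison of genotypes. Which designer receptor was used, how it was delivered and whether WT mice received it is not stated in the labels.

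DCZ is a close relative of clozapine made to activate muscarinic designer receptors, and clozapine-type compounds can also bind native dopamine, serotonin, histamine, muscarinic and adrenergic receptors. Brown fat burns lipid and glucose in mitochondria that are uncoupled by Ucp1, and sympathetic nerves switch this on through beta-adrenergic receptors, cAMP and protein kinase A. Within minutes such a signal is known to induce immediate early genes and CREB targets, transcription factors and signalling genes that need no new protein for their induction.

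Total estimated counts ran from 13.2 to 20.2 M in the 12 WT libraries, 17.9 M ± 1.34 (SD, n = 6) with DCZ and 16.1 M ± 2.14 with saline. No difference between the groups was detected in total counts, pseudoaligned share, mitochondrially encoded share, muscle share, haemoglobin share or number of genes detected. Two-sided exact permutation tests over 924 arrangements gave adjusted p of 0.714 to 0.896 over these 6 properties. Markers of brown adipocytes held 1.36 to 1.92% of the counts of every WT library. Muscle markers held 0.0271% in WT saline 12 and at most 0.00118% in the other 11. Treatment nearly followed the library number. Of library numbers 1 to 6 all but WT saline 2 were DCZ, and of 7 to 12 all but WT DCZ 10 were saline. In males the overlap was complete, with DCZ at numbers 1, 3 and 5 and saline at 7, 9 and 11, so that in males treatment and number cannot be told apart.

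A single gene changed between DCZ and saline. Arl4d, an Arf-family small GTPase, fell to 0.525 of its saline level, and 0 genes rose. This is 1 of 13129 genes tested (0.00762%, quasi-likelihood test of edgeR, Benjamini-Hochberg adjusted p under 0.05). At an unadjusted p under 0.05 stood 1137 genes (8.66%), of which 646 were higher (4.92%) and 491 lower (3.74%) with DCZ. In a fit of the WT libraries alone, 824 of 12700 genes had such a p. This count was 227 with a term for low against high library numbers, and 315 with library number as a slope. These terms also widen the SE, which for Arl4d was 0.162 in the WT fit and 0.207 and 0.186 with them. With no effect at all, a share of genes near 0.05 would have such a p on average. Treatment nearly followed library number, and whether the 1137 genes reflect DCZ, library order or chance was not tested. DESeq2 called 13 genes, all higher, with its default filter, which left 12472 of the 13129 genes without an adjusted p. Without that filter DESeq2 called 4 higher and 1 lower, while limma-voom called 0.

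Arl4d stood at 3.16 to 5.88 CPM (counts scaled to the normalized library size, median 3.86) in the saline libraries and at 1.69 to 2.62 CPM (median 2.0) in the DCZ libraries. The groups did not overlap: every DCZ library lay below every saline library, which held for 16 of all 13129 genes (0.122%), and the opposite for 9 (0.0686%). With 924 possible arrangements of 6 against 6 libraries, some genes separate in this way by chance alone. For Arl4d both libraries that break the library order thus lay on the side of their treatment, WT saline 2 at 3.30 CPM and WT DCZ 10 at 2.62 CPM. The mean was 4.02 CPM ± 0.984 (SD, n = 6) with saline and 2.11 ± 0.393 with DCZ, and the log2 fold change was -0.93 ± 0.149 (SE, 95% interval -1.24 to -0.62, adjusted p = 0.0237 by edgeR with Benjamini-Hochberg adjustment). In bulk tissue, fewer cells that hold a transcript and less of it per cell cannot be told apart. Leaving out WT saline 7, 8 or 9, or WT DCZ 1, 3, 4, 5 or 6, ended the call (edgeR adjusted p of 0.0542 to 0.113), and leaving out WT saline 2, 11 or 12 or WT DCZ 10 did not (0.00339 to 0.0415). It also ended in a fit of the WT libraries alone (log2 fold change -0.93, adjusted p = 0.569), and with library numbers 1 to 6 against 7 to 12 as a term the value was -0.69 ± 0.207 (adjusted p = 1).

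**Figure D1:**
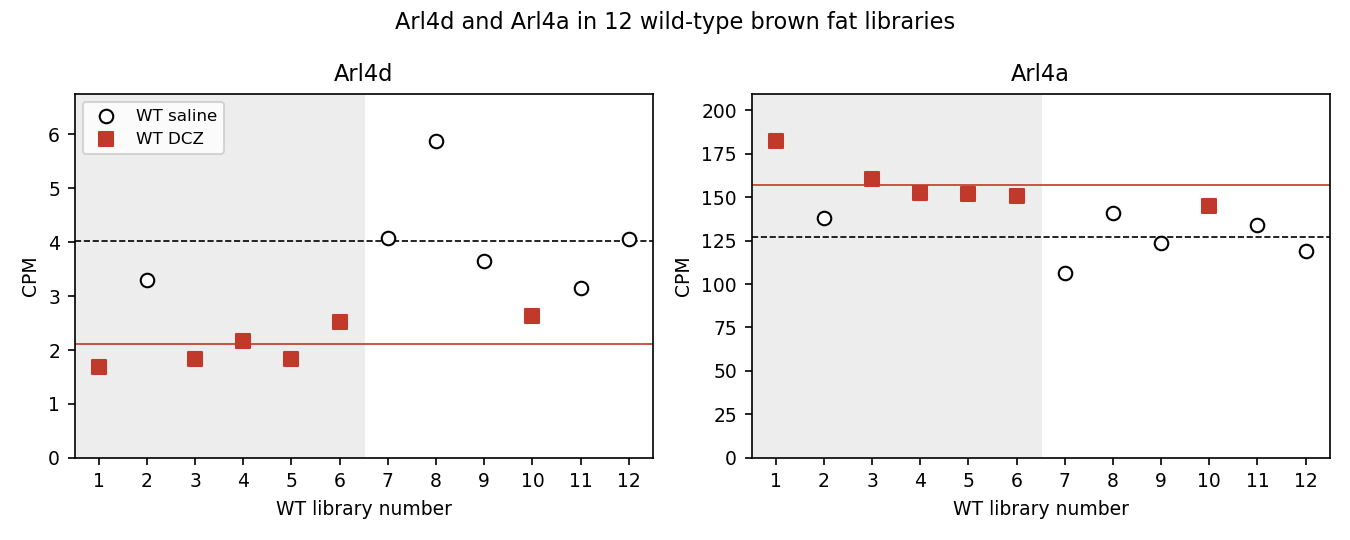
CPM of Arl4d (left) and Arl4a (right) against the WT library number, 1 point per mouse, with open circles for saline, red squares for DCZ, lines for the group means (dashed for saline, solid for DCZ) and grey for numbers 1 to 6. All 6 DCZ libraries lie below all 6 saline libraries for Arl4d and above them for Arl4a.

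Arl4d lies on chromosome 11 of GRCm38 (101665541 to 101667832, plus strand, GENCODE M21), is annotated as protein-coding with 1 transcript of 2 exons and overlaps no other gene. The 250 bases upstream of its start are shown because it was the only gene to change and because CREB, the factor through which cAMP acts on many fast genes, binds the cAMP response element TGACGTCA. The window is that of RefSeq on GRCm38.p6, chr11:101665291-101665540 on the plus strand, with the element in capitals:
Arl4d upstream: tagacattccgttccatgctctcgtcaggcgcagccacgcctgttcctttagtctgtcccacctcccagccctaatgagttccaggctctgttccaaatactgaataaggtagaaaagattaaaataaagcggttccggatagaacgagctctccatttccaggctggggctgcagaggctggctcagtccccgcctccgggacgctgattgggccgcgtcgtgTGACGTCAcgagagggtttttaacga
A full element (searched as TGACGTCA, which reads the same on both strands) was found once, 26 to 19 bases upstream of the start. It was present in 508 of 32851 windows of the same length upstream of RefSeq starts (1.55%). The AP-1 site TGANTCA, searched on both strands, was not found in the Arl4d window and was found in 6.75% of all windows. No full cAMP response element was found in the matching windows of Arl4a and Arl4c. These matches describe letters in the window, not binding.

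Of the Arl4 relatives, Arl4a tended the other way and Arl4c could not be measured well. Arl4a, an abundant paralog in this tissue, stood at 106 to 141 CPM (median 129) with saline and at 145 to 182 CPM (median 152) with DCZ. Its groups did not overlap either, although the gap between WT saline 8 (141 CPM) and WT DCZ 10 (145 CPM) was small. Its log2 fold change was 0.31 ± 0.0996 (unadjusted p = 0.00442), which did not pass over all genes (adjusted p = 0.527). Arl4c stood at 1.32 to 2.48 CPM with saline and 0.957 to 3.33 CPM with DCZ, with a log2 fold change of -0.06 ± 0.308 whose sign turned with a term for library number and when any 1 of 5 libraries was left out. In the list of 31 Arf-like and Arf GTPases and their exchange factors, 19 values were above 0 and 12 below, beside 49.8% of all genes above 0, and Arl4d was the only member past the threshold. Their median was 0.02, beside -0.00 over all genes.

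The precision of the comparison bounds the difference between the groups. The fit has no term for library number, so it does not bound an effect of DCZ apart from library order. The median SE of a log2 fold change was 0.115. The 95% interval lay wholly between -1 and 1 for 92.0% of the genes, that is, short of a 2-fold change in either direction, and between -0.5 and 0.5 for 69.1%. Precision fell with the level, to a median SE of 0.219 for genes at 1 to 5 CPM.

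Genes of heat production and its adrenergic control did not pass the test. Ucp1, the uncoupling protein, stood at 3843 to 6159 CPM (median 4641) with saline and 4292 to 6533 CPM (median 5358) with DCZ. These ranges overlapped widely, and the log2 fold change of 0.18 had an interval of -0.08 to 0.44. Ppargc1a, a coactivator of mitochondrial genes, had 0.28 (interval -0.09 to 0.66). Dio2, which makes active thyroid hormone, had 0.34 (-0.11 to 0.78), and Adrb3, the main beta-adrenergic receptor of fat, -0.29 (-0.74 to 0.17). For each of these 4 genes the interval lay short of a 2-fold change. Adjusted p over the 4 genes was 0.633 to 0.689 (edgeR with Benjamini-Hochberg adjustment). Of 28 tested genes of thermogenesis and brown adipocyte identity 19 had a value above 0, with a median of 0.09. A p under 0.05 was found for 4 upward and 1 downward (17.9%, beside 8.66% of all genes). Among those with a p under 0.05 were Esrrg, an oestrogen-related receptor (0.51 ± 0.209), and Cpt1b, which admits long-chain fatty acids to mitochondria (0.15 ± 0.0657), with adjusted p of 0.527 and 0.537.

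Acute cAMP and CREB targets lay on both sides of 0. Of 25 tested, 13 were above and 12 below, with a median of 0.01 and 0 past the threshold. Sik1, a CREB-induced kinase, stood at 30.2 to 180 CPM with saline and 65.4 to 173 CPM with DCZ, a log2 fold change of -0.00 ± 0.259 whose sign depended on the normalization. Per1, a clock gene that cAMP induces, had -0.10 ± 0.181. The 2 members with a p under 0.05 were Pck1, an enzyme of glycerol synthesis in fat (0.31 ± 0.107), and Pde3b, which breaks cAMP down (0.28 ± 0.105). Their share of the list, 8%, was near the 8.66% of all genes. Among 30 adrenergic receptors and parts of the cAMP pathway the median was 0.02. Of these, Prkar1a (0.17 ± 0.0635) and Prkar2b (0.27 ± 0.101), regulatory subunits of protein kinase A, and Arrb2, an arrestin that shuts receptors off (-0.37 ± 0.135), had a p under 0.05. That is 10% of the list, near the 8.66% of all genes. Adjusted p for these 5 genes was 0.527, by edgeR with Benjamini-Hochberg adjustment.

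**Figure D2:**
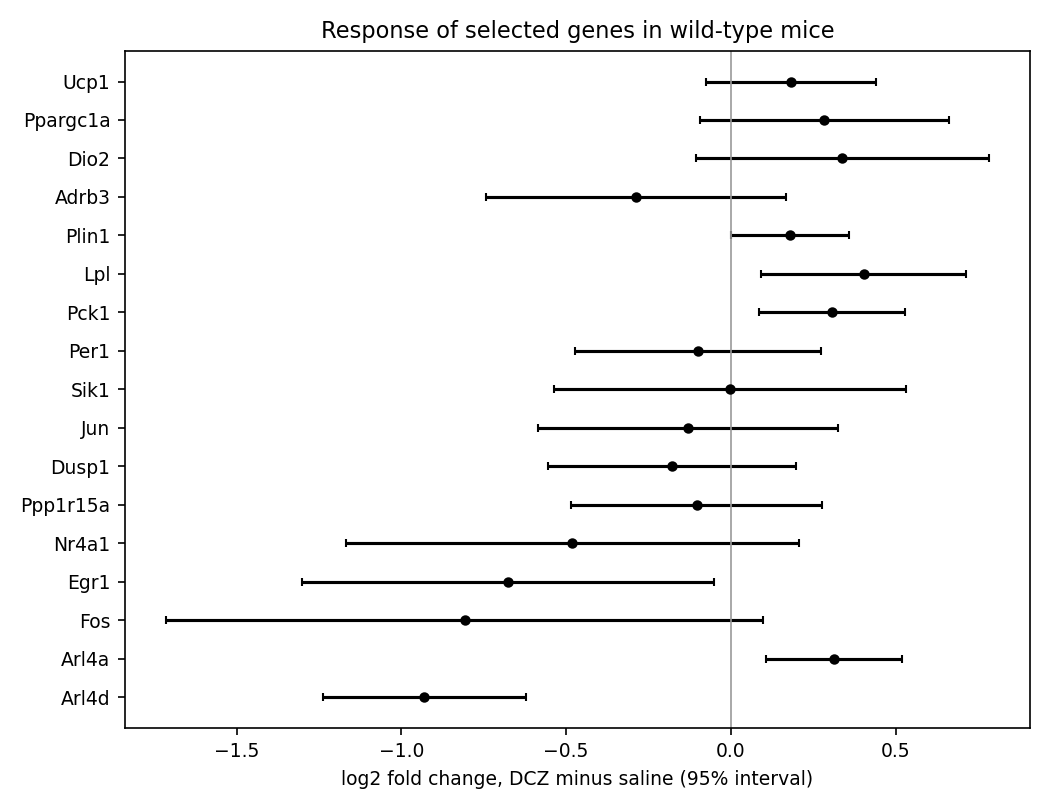
Log2 fold change of 17 genes, DCZ minus saline in WT mice, as points with 95% intervals from edgeR. Only the interval of Arl4d belongs to a gene past the threshold, and the intervals of Fos, Egr1 and Nr4a1 are the widest of the 17.

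Immediate early genes leaned to lower values with DCZ, and 0 of them passed. Of 33 tested, 30 had a value below 0, with a median of -0.29. A p under 0.05 was found for 7, all downward (21.2%, beside 8.66% of all genes). Fos, a subunit of AP-1, stood at 21.6 to 110 CPM (median 43.1) with saline and 9.52 to 85.1 CPM (median 21.9) with DCZ. The highest saline library was WT saline 9 and the highest DCZ library WT DCZ 3, both males, and the same held for Egr1 and Nr4a1. The mean log2 CPM of the list was 4.39 to 5.53 in WT males and 3.78 to 4.61 in WT females. Sex is a covariate in the fit. The log2 fold change of Fos was -0.81 ± 0.439, that of Egr1, a zinc finger factor, -0.68 ± 0.303 and that of Nr4a1, an orphan nuclear receptor that adrenergic signals induce, -0.48 ± 0.333. Leaving out WT DCZ 3 moved Fos to -1.26 and Nr4a1 to -0.82, and leaving out WT saline 9 moved Egr1 to -0.42 and Nr4a1 to -0.21. Jun (-0.13 ± 0.221), Dusp1, a phosphatase of MAP kinases (-0.18 ± 0.183), and Ppp1r15a, which restores translation after stress (-0.10 ± 0.185), had intervals of -0.59 to 0.32, -0.56 to 0.20 and -0.49 to 0.28. The smallest p of the list came from Ier5 (-0.64 ± 0.217), Klf6 (-0.29 ± 0.121) and Klf2, a factor that blood flow induces in endothelium (-0.52 ± 0.229), and in each of these the lowest saline library was WT saline 2. Adjusted p over these 9 genes was 0.527 to 0.887 (edgeR with Benjamini-Hochberg adjustment).

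Inflammatory and NF-kB targets had the same lean, 16 of 18 below 0, with a median of -0.43 and 0 past the threshold. Of the 18, 4 had a p under 0.05 (22.2%, beside 8.66% of all genes). Irf1, an interferon-induced factor, stood at 22 to 38.0 CPM (median 29.4) with saline and 17.9 to 26.6 CPM (median 21.8) with DCZ. The only saline library within the DCZ range was WT saline 2. Its log2 fold change was -0.49 ± 0.124 (adjusted p = 0.51 by edgeR with Benjamini-Hochberg adjustment). Ccl2, a chemokine that draws monocytes, had -1.07 ± 0.378, and Socs3, an inhibitor of cytokine receptors, -1.16 ± 0.479, both at an adjusted p of 0.527. Socs3 stood at 50.3 CPM in WT saline 9 and at most 12.48 CPM in the other saline libraries, and without WT saline 9 its value was -0.47. Markers of macrophages held 0.00720 to 0.0104% of the counts in saline and 0.00634 to 0.0233% in DCZ libraries, the highest in WT DCZ 3, with all 11 markers tested and 0 at zero reads, and their part in these values was not tested.

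The 8 smallest p upward, among genes with a mean log2 CPM of at least 1, belonged to Agk, Nsun3, Slc25a17, Cat, Rnf185, Cox15, Ell2 and Fitm2, all short of the threshold, with log2 fold changes of 0.27 to 0.43 and adjusted p of 0.285 to 0.51 (edgeR with Benjamini-Hochberg adjustment). Agk, a mitochondrial lipid kinase that also serves protein import, stood at 11.9 to 16.4 CPM (median 13.6) with saline and 15.3 to 20.2 CPM (median 17.9) with DCZ, and 5 DCZ libraries lay above all saline libraries. Cox15, which makes the haem A of cytochrome oxidase, stood at 28.9 to 54.1 CPM (median 33.1) with saline and 34.1 to 53.5 CPM (median 48.4) with DCZ. WT saline 2 was the highest of all 12 libraries, and the other 5 saline libraries, at 28.9 to 33.5 CPM, lay below every DCZ library. Nsun3 modifies the mitochondrial methionine tRNA. Cat is catalase, which breaks down peroxide in peroxisomes, and Slc25a17 is a carrier of the peroxisomal membrane. Fitm2 takes part in the budding of lipid droplets, and Ell2 is an elongation factor of RNA polymerase II.

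The 7 named genes that followed Arl4d downward were Ncoa3, Dnajb1, Slx1b, Slc10a7, Irf1, Tcf15 and Ier5l, with log2 fold changes of -0.86 to -0.33 and adjusted p of 0.472 to 0.51. Ncoa3, a coactivator of nuclear receptors, stood at 28.3 to 33.2 CPM (median 30.8) with saline and 19.7 to 27.3 CPM (median 25.0) with DCZ, without overlap. Slc10a7 and Ier5l also did not overlap between the groups. Dnajb1, a heat shock cochaperone, stood at 14.4 to 22.4 CPM (median 20.1) with saline and 12.8 to 14.8 CPM (median 14) with DCZ. WT saline 2, at 14.4 CPM, was again the only saline library within the DCZ range. Tcf15 is a transcription factor known from endothelium and adipocyte precursors. Over the 19 tested heat shock genes the median was 0.00.

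**Figure D3:**
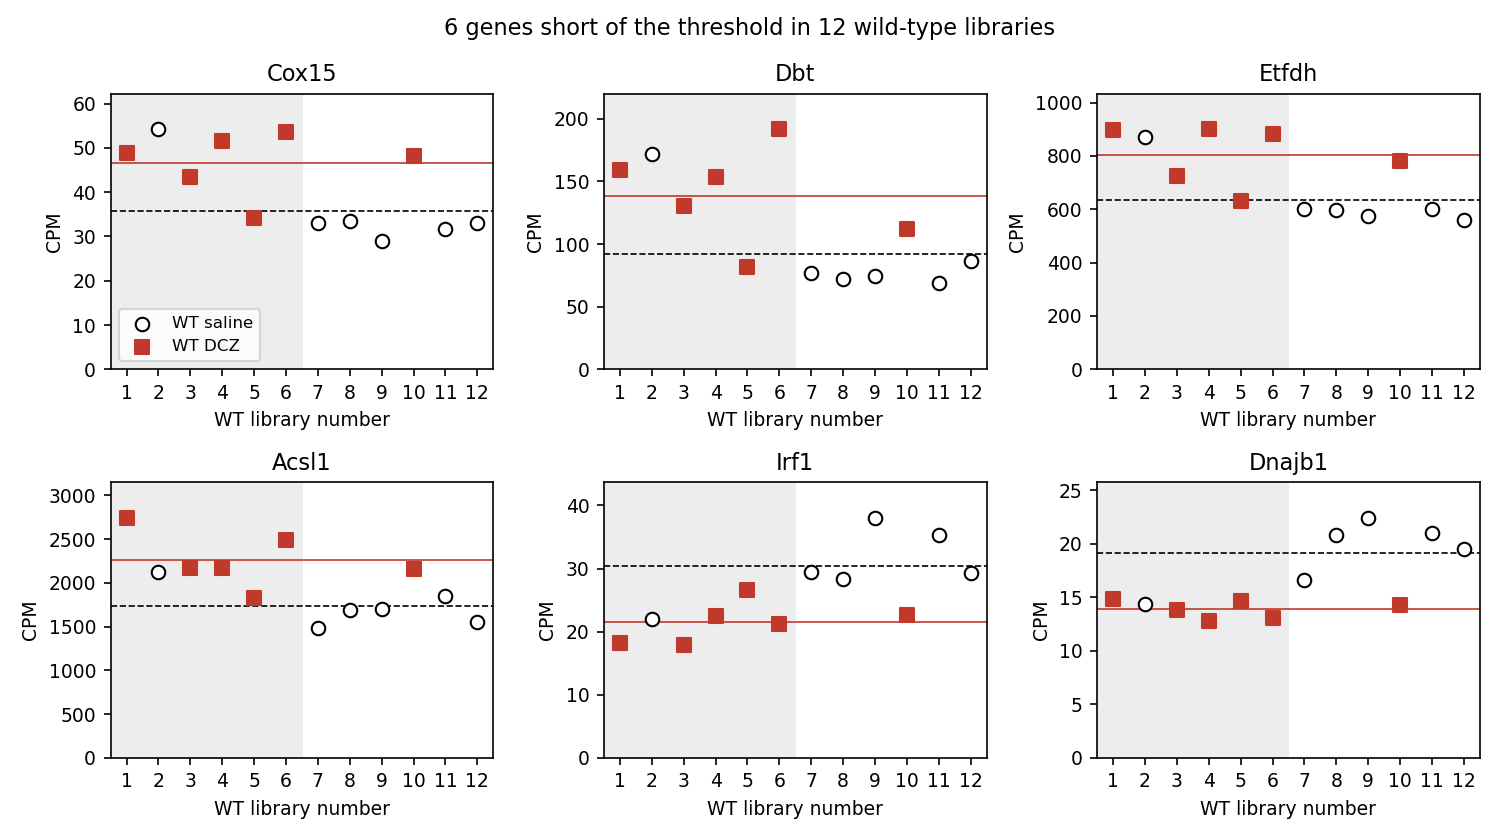
CPM of 6 genes against the WT library number, with open circles for saline, red squares for DCZ, group means as lines and grey for numbers 1 to 6. For Cox15, Dbt, Etfdh, Acsl1, Irf1 and Dnajb1, WT saline 2 lies among or beside the DCZ libraries and away from the other 5 saline libraries.

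The lists of fatty acid oxidation, lipolysis and glycolysis had medians above 0 and no member past the threshold by edgeR. With its default filter, DESeq2 called Acsl1, Etfdh and Cpt2 of the first list (adjusted p of 0.0282, 0.0301 and 0.0433). None of them was called by DESeq2 without that filter. Of 20 genes of fatty acid oxidation 17 were above 0 and 9 had a p under 0.05, all upward, against 8.66% of all genes, with a median of 0.15. Acsl1, which activates fatty acids with coenzyme A, stood at 1489 to 2127 CPM (median 1692) with saline and 1831 to 2741 CPM (median 2170) with DCZ (log2 fold change 0.38 ± 0.1, adjusted p = 0.51 by edgeR with Benjamini-Hochberg adjustment). Etfdh, which passes electrons from fatty acid oxidation to ubiquinone, had 0.34 ± 0.0919, and Cpt2, the inner carnitine transferase, 0.24 ± 0.073. Lipolysis and lipid uptake (20 genes, 16 above 0, median 0.07) included Lpl, the lipase that frees fatty acids from circulating triglyceride (0.40 ± 0.151), and the lipid droplet proteins Cidec (0.22 ± 0.105) and Plin1 (0.18 ± 0.0863). Glucose uptake and glycolysis (26 genes, 17 above 0, median 0.07) included Gys1, glycogen synthase (0.23 ± 0.0886), Pdk2, a kinase that restrains pyruvate dehydrogenase (0.21 ± 0.0817), and Pfkfb3, a regulator of glycolysis (0.33 ± 0.129). Adjusted p for Etfdh, Cpt2 and these 6 genes was 0.51 to 0.575.

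The nuclear genes of the respiratory chain had a median below 0. Of 46 nuclear genes of oxidative phosphorylation 36 were below 0, with a median of -0.09. A p under 0.05 was found for 4, all downward, a share (8.70%) near the 8.66% of all genes. Ndufa4 (-0.23 ± 0.0971) and Cox5a (-0.18 ± 0.0744), subunits of cytochrome oxidase, had adjusted p of 0.527 and 0.532 (edgeR with Benjamini-Hochberg adjustment). The 13 mitochondrially encoded mRNAs, which code for subunits of the same complexes, had 9 values above 0 and a median of 0.07. Synthesis of fatty acids and triglyceride (21 genes) had -0.11, of cholesterol (23 genes) 0.01, the circadian clock (18 genes) -0.01, glucocorticoid responsive genes (17) -0.09, secreted factors of adipose tissue (17) -0.06 and the unfolded protein and integrated stress response (25) 0.03. In the last, Dnajb9, a chaperone of the endoplasmic reticulum, had 0.31 ± 0.101 and Ddit3, a factor of the stress response, -0.39 ± 0.162. Of the secreted factors, Rbp4, which carries retinol, had -0.40 ± 0.149.

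A further 5 lists were added after the values were seen and are described only. Breakdown of branched-chain amino acids and propionate had 24 of 25 values above 0, with a median of 0.18. Of the 25, 14 had a p under 0.05 (56%, beside 8.66% of all genes). Dbt, the core subunit of the dehydrogenase that commits these amino acids to breakdown, stood at 69.3 to 172 CPM (median 75.8) with saline and 81.5 to 191 CPM (median 142) with DCZ. The 172 CPM belonged to WT saline 2, and the other 5 saline libraries reached at most 86.2 CPM. Ppm1k, the phosphatase that switches this enzyme on, had a log2 fold change of 0.58 ± 0.195, Dbt 0.61 ± 0.172 and Acat1, a thiolase, 0.22 ± 0.0789. Mitochondrial chaperones, import and gene expression (33 genes, 29 above 0) had a median of 0.16 and included the chaperonin Hspd1 (0.30 ± 0.0892). Peroxisomal oxidation and assembly (38 genes, 33 above 0) had 0.13 and included Pex19, which inserts peroxisomal membrane proteins (0.22 ± 0.0647). Haem, coenzyme Q and cytochrome oxidase assembly (33 genes, 23 above 0) had 0.04. Interferon-inducible and MHC class I genes had 42 of 44 values below 0 and a median of -0.36. Of the 44, 25 had a p under 0.05 (56.8%, beside 8.66% of all genes). Among them were Parp14 (-0.46 ± 0.126) and Ifi213, which stood at 0.895 to 1.72 CPM with saline and 0.450 to 0.865 CPM with DCZ, without overlap. No member of these 5 lists passed by edgeR (smallest Benjamini-Hochberg adjusted p 0.472). With its default filter, DESeq2 called Cat, Pex19 and Hspd1 among the members named here (adjusted p of 0.0111, 0.0433 and 0.0433). Without that filter Cat was still called, and Pex19 and Hspd1 were not.

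**Figure D4:**
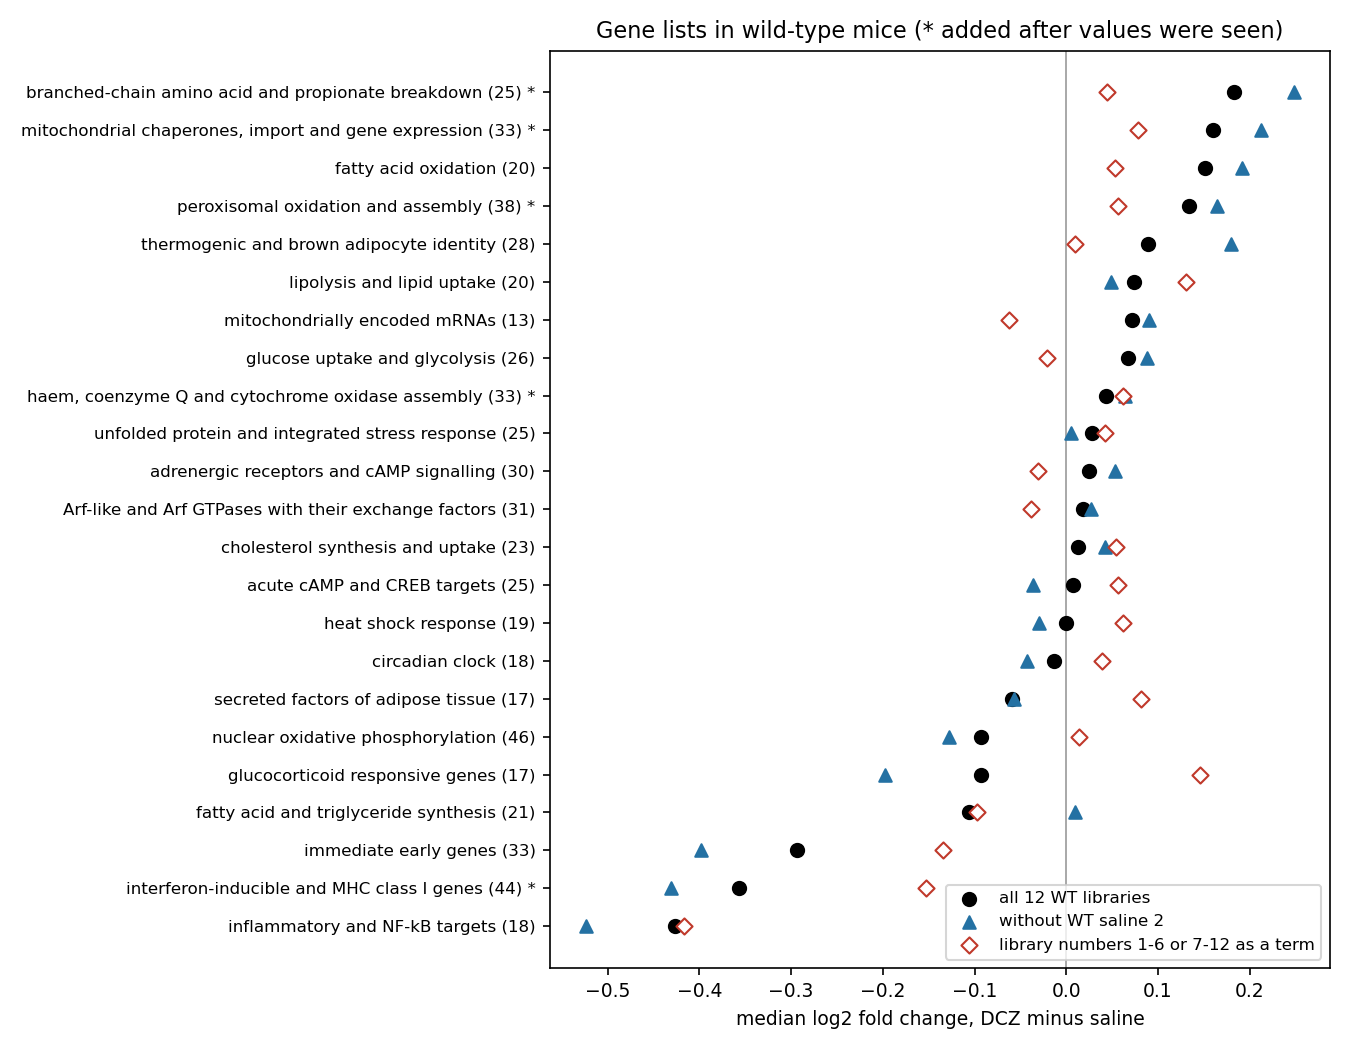
Median log2 fold change, DCZ minus saline, of the functional gene lists with at least 10 tested genes (number in brackets) over all 12 WT libraries (black circles), without WT saline 2 (blue triangles) and with library numbers 1 to 6 against 7 to 12 as a term (open diamonds). For branched-chain amino acid breakdown the median is 0.18, 0.25 and 0.04 in these fits, and for interferon-inducible genes -0.36, -0.43 and -0.15.

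WT saline 2 stood with the DCZ libraries in many of these genes. Its label was used as given in every comparison, and whether it is right was not tested. Without it 39 genes passed, 31 higher and 8 lower, among them Cox15, C1rl, a complement serine protease (0.46 ± 0.0731), Nsun3, Dbt, Agk and Etfdh upward and Slc28a2, a nucleoside transporter (-0.41 ± 0.0817), Dnajb1, Zfp692, Slx1b, Slirp, an RNA-binding protein of mitochondria (-0.37 ± 0.0806), and Irf1 downward. Cox15 then had a log2 fold change of 0.51 ± 0.0751 (adjusted p = 0.00339) and Dbt 0.82 ± 0.146 (adjusted p = 0.0221, edgeR with Benjamini-Hochberg adjustment). Without both WT saline 2 and WT DCZ 10 (an alternative added with the values in view, which leaves treatment and library order fully joined), 146 genes passed, 114 higher and 32 lower, and all 39 were among them. In that set of 146, chosen without these libraries, WT saline 2 lay nearer the mean of the other 5 DCZ libraries than that of the other 5 saline libraries for 142 genes (97.3%), beside 70.4% of all genes tested. WT DCZ 10 lay nearer the DCZ libraries for 87 of the 146 genes (59.6%), beside 48.1% of all genes.

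The list medians also differed between the 2 ranges of library numbers, and whether this reflects library order was not tested. Within numbers 1 to 6 (5 DCZ libraries against WT saline 2) the median difference was -0.12 for branched-chain amino acid breakdown, -0.03 for fatty acid oxidation, 0.36 for immediate early genes and 0.02 for interferon-inducible genes. Within numbers 7 to 12 (WT DCZ 10 against 5 saline libraries) it was 0.20, 0.16, -0.60 and -0.41. Values within a range rest on 1 library on a side, have no test and, unlike the fits, are not adjusted for sex. WT saline 2 and WT DCZ 10 are both females, set against libraries of both sexes. The level of immediate early genes was mostly lower in females than in males, as given above. With the 2 ranges of library numbers as a term, the medians were 0.04, 0.05, -0.13 and -0.15. Not every list came nearer 0. Lipolysis and lipid uptake had a median difference of 0.10 within numbers 1 to 6 and 0.21 within 7 to 12. Its median was 0.13 with the 2 ranges as a term, beside 0.07 over all WT libraries. Inflammatory and NF-kB targets had a median difference of 0.23 within numbers 1 to 6 and -0.76 within 7 to 12, and a median of -0.42 with the 2 ranges as a term and -0.31 with number as a slope, beside -0.43 over all WT libraries. By this term the nuclear genes of oxidative phosphorylation had a median of 0.01 and glucocorticoid responsive genes of 0.15.

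**Figure D5:**
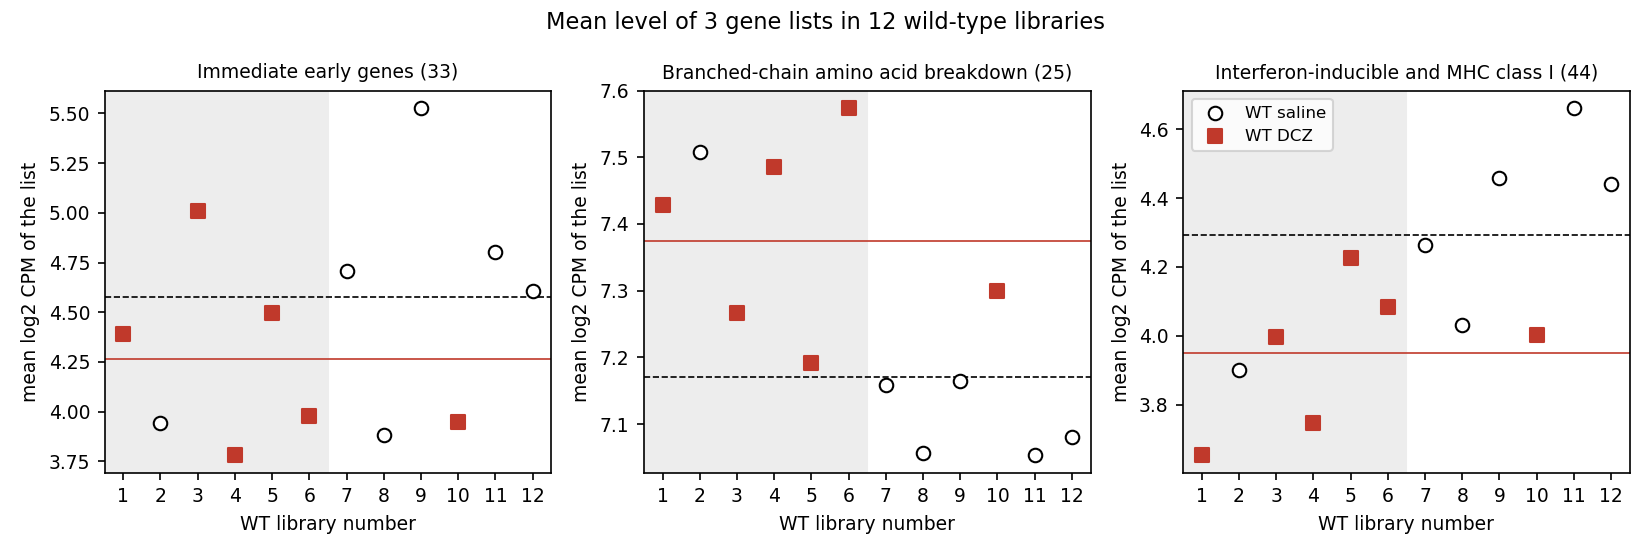
Mean log2 CPM of 3 gene lists in each WT library against the library number, with open circles for saline, red squares for DCZ, group means as lines and grey for numbers 1 to 6. WT saline 2, at 7.51 for branched-chain amino acid breakdown and 3.90 for interferon-inducible genes, lies beyond the other 5 saline libraries (7.05 to 7.17 and 4.03 to 4.66).

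A slope on library number at a given treatment and sex was called for 1 gene of 12700 tested in the WT libraries (0.00787%), while 2502 genes (19.7%) had a p under 0.05. The called gene was Nnat, a proteolipid known from developing brain and from white fat, with a log2 slope of 0.19 ± 0.0258 per number (adjusted p = 0.0355 by edgeR with Benjamini-Hochberg adjustment). It stood at 4.92 CPM in WT saline 2 and at 11.5 to 26.5 CPM in the other 5 saline libraries, and at 18.3 CPM in WT DCZ 10. The immunoproteasome subunit Psmb8 (0.11 ± 0.0171) and the stromal marker Ly6a (0.10 ± 0.0166) were among the 5 smallest p, at adjusted p of 0.0777 and 0.0865. The call on Nnat ended on leaving out WT saline 2 or 7, or WT DCZ 1, 3 or 10, and also with the 2 ranges of numbers in place of the slope. Without WT saline 11 the slope was called for 626 genes, 275 upward and 351 downward, without WT saline 9 for 5, without WT DCZ 10 for 4 and without WT DCZ 4 for 2.

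The native receptors that clozapine-type ligands can bind mostly gave few reads in this tissue. Of 29 listed, 7 had 0 reads in all 12 WT libraries (Chrm2, Chrm5, Drd4, Htr1a, Htr2c, Htr3a and Hrh3), which allows up to 0.0147 CPM over these libraries by counting error alone, and 8 more had 1 to 12 reads in all. The alpha-1 adrenergic receptors Adra1a (45.8 CPM ± 10.3 with saline, 49.0 ± 6.78 with DCZ, n = 6 each) and Adra1d (6.39 ± 2.70 and 7.02 ± 1.98) and the histamine receptor Hrh2 (5.57 ± 0.804 and 4.66 ± 0.868) were the best covered. Their log2 fold changes were 0.11 ± 0.12, 0.13 ± 0.226 and -0.26 ± 0.125 (adjusted p of 0.575 to 0.887 by edgeR with Benjamini-Hochberg adjustment), and those of Adra1a and Adra1d turned in sign with a term for library number. Chrm3, the muscarinic M3 receptor, gave 0 to 5 reads per library and 18 in all in WT mice, against 6 to 66 per library and 301 in all in Th-Cre mice. These are reads not scaled for depth, of a gene singled out after its values were seen. The share of all genes without overlap between the genotypes was not computed, and genotype fully followed library number. Counts per gene symbol do not show whether the reads in Th-Cre mice come from the native gene or from an introduced receptor, which was not tested. It passed the filter on low counts through the Th-Cre libraries and had a log2 fold change of -0.70 ± 0.87 in WT mice.

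No difference between males and females in the response was detected at this precision. The interaction of sex and DCZ was called for 0 of 13129 genes (0%) by edgeR, and 328 genes (2.5%) had an unadjusted p under 0.05. Within males 836 genes (6.37%) and within females 480 (3.66%) had a p under 0.05, with 0 called in either. The value of Arl4d was -1.02 ± 0.227 in males and -0.85 ± 0.22 in females. Among the smallest p of the interaction were Adam12, a metalloprotease (0.73 in males, -0.00 in females), and the zinc finger gene Zfp790 (0.59 and -0.07), both at an adjusted p of 1. Arl4a had 0.44 ± 0.121 in males and 0.17 ± 0.121 in females.

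The response to DCZ differed from that of Th-Cre mice for the same gene. The log2 change of Arl4d was lower by 1.53 ± 0.21 in WT than in Th-Cre mice (adjusted p of this difference 0.00185 by edgeR with Benjamini-Hochberg adjustment). In Th-Cre mice it was 0.60 ± 0.147 and was not called (adjusted p = 0.164). Genotype fully followed library number, with WT at 1 to 12 and Th-Cre at 13 to 24, so that genotype and number cannot be told apart in levels. Treatment nearly followed library number in WT mice, while DCZ and saline were mixed over 13 to 24 in Th-Cre mice. The difference in response therefore also holds any shift with library order in WT mice, which was not tested. Arl4d was the only call of 13129 genes (0.00762%), and 980 genes (7.46%) had an unadjusted p under 0.05. Arl4a had 0.31 in WT and 0.39 in Th-Cre mice, a difference of -0.08 ± 0.141. Without WT saline 2 7 genes were called, Arl4d with Cox15, Nsun3, C1rl, Dusp1, Dnajb1 and Adamts1. Without WT saline 7 there were 3 and without WT DCZ 3 there were 2. Without WT saline 2, Cox15 differed by 0.61 ± 0.103 (edgeR adjusted p = 0.022), against 0.48 ± 0.136 (adjusted p = 0.427) with all libraries.

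Of 12 endothelial markers 11 were below 0, with a median of -0.19 and 0 past the threshold. The angiogenic receptors Tek (-0.24 ± 0.0948) and Flt1 (-0.25 ± 0.12) had a p under 0.05 (16.7% of the markers, beside 8.66% of all genes). Together the 12 markers held 0.0862 to 0.159% of counts with saline and 0.0861 to 0.149% with DCZ. Their part in the lower values of Klf2 and Tcf15 was not tested. With the 2 ranges of library numbers as a term the endothelial median was 0.06. All 13 skeletal muscle markers were below 0 (median -3.19). Without WT saline 12 their median was 0.25. For markers of fibroblasts and preadipocytes, macrophages, smooth muscle and Schwann cells the medians were -0.05 to 0.09. Mast cells had a median of 0.33 (4 tested), neutrophils 0.10 (3) and white adipocytes -0.04 (6). Lymphocytes and plasma cells had 0.07 (9 tested, values of -0.84 to 0.71). Of 9 sympathetic neuron markers only Stmn2 was tested, at -0.23. All 5 tested erythroid markers were below 0, with a median of -0.66 and no p under 0.05, and their share was highest in WT saline 9 (0.114%).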

How the data were processed

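Polyadenylated RNA of interscapular brown fat was sequenced, 1 library per mouse, so p-values measure the spread between mice. The submitters' processing notes name kallisto 0.44.0 and GRCm38.p6 and give no transcript set, gene summary or strand setting. The authors deposited estimated counts per gene symbol as whole numbers, which were tested as deposited. The library table holds, per the file headers, read counts and the percent of reads pseudoaligned. Of 36144 genes 13364 had 0 reads, and filterByExpr left 13129 with 99.9% of reads. Reads of overlapping genes or near-identical copies could be shared. The deposited normalized tables were not used.

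All 24 libraries entered 1 fit in edgeR 4.0.16 (R 4.3.3) with TMM library sizes, group means and sex as a covariate, tested by quasi-likelihood with Benjamini-Hochberg adjustment at 0.05. "Fell", "rose" and "changed" are used only of genes past this threshold. SEs were derived from the F statistic. The sex interaction used 8 means of group and sex, and the slope on library number the 12 WT libraries. Alternatives used DESeq2 1.42.0, limma 3.58.1, other normalizations and filters, terms for library number and each WT library left out. Scripts were tested on simulated data. Positions are from GENCODE M21 (GRCm38) and the upstream window from RefSeq.

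The comparison, tests and lists were chosen with earlier results of these data known. Genes were named if past the threshold, among the 8 smallest p in each direction at a mean log2 CPM of at least 1, up to 3 per list, in a fixed set of acute and thermogenic genes, tested clozapine-type receptors, the 6 smallest p in each direction among calls without a library that moved the count by over 1.5 times, or among the 5 smallest p of the other tests. Ppm1k, Acat1, Pex19, Parp14 and Ifi213, of lists added later, and Adamts1 were named after their values were seen.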

Additional observations from a re-analysis of the deposited data

Results flagged for a closer look

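In 30 of 168 checked groups of 6 libraries, 1 library stood apart from the other 5 by Dixon's criterion, which chance alone would do in about 1 in 20 groups. That rate does not apply to this set, since several genes (such as C1rl and Slc28a2) were named because they passed without WT saline 2. Of the 30 flags 14 fall on 1 library, so they are not separate events.

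WT saline 2 stood apart in 14 genes. It was high in CPM for Nsun3 (17.1), Cat (607), Cox15 (54.1), Ell2 (36.2), Etfdh (871), Cpt2 (491), Dbt (172), C1rl (31.0), Pde3b (255), Gys1 (235) and Acat1 (813), and low for Ndufa4 (582), Cox5a (535) and Slc28a2 (29.6).
WT saline 9 was high for Egr1 (263 CPM), Fos (110), Ppp1r15a (27.4) and Socs3 (50.3), and WT DCZ 3 for Egr1 (160), Fos (85.1), Socs3 (17.05) and Arrb2 (8.72). WT DCZ 3 was low for Slc10a7 (6.05 CPM) and had the fewest genes detected of its group, 16630.

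Arl4d was high in WT saline 8 (5.88 CPM, the others 3.16 to 4.07), Rbp4 in WT saline 11 (115 CPM), and Ell2 low in WT DCZ 5 (27.9 CPM). Chrm3 was high in WT DCZ 4 at 0.108 CPM, a level of very few reads. Muscle markers held 0.0271% of counts in WT saline 12 and 0.00118% in WT DCZ 1, beside at most 0.000460% and 0.000320% in the other libraries of these groups.

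The response of Arl4d differed between the genotypes by -1.53 on the log2 scale, WT minus Th-Cre, with the edgeR test given above.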

How the results depend on the processing

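No paired analysis was possible because WT mouse numbers 1 to 12 are each used once and no groups share a number. Of 1810 values of 78 named genes recomputed, 1706 kept direction and side of the threshold, 55 came to pass it, 14 lost it and 35 turned in sign. Only Arl4d passed in the main fit, so all 14 losses were of Arl4d. Most of the 1706 values belong to genes that passed in neither fit. Arl4d kept its direction wherever it was tested.

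The count of genes higher was 0, with 13 by DESeq2, where Arl4d has no adjusted p, 4 by DESeq2 without independent filtering and 114 without both WT saline 2 and WT DCZ 10, both added after seeing the data. Leaving out 1 library gave 0 to 31. The count lower was 1, and 0 with no filter, a stricter filter (which removes Arl4d), WT libraries only, no sex term, either library term, DESeq2 or limma-voom, 32 without both libraries and 0 to 8 leaving out 1. By genotype it was 1, 0 with the stricter filter and 1 to 7 leaving out 1. By library number it was 1, 0 with the 2 ranges of numbers and 0 to 626 leaving out 1.

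In log2 fold change, these turned with the 2 ranges of numbers as a term: Adrb3 (0.0448), Sik1 (0.0568), Per1 (0.22), Adra1a (-0.0771), Adra1d (-0.46), Flt1 (0.0544), Ly6a (0.0929), Psmb8 (0.0122) and Nnat (0.55). With number as a slope Arl4c (0.11), Sik1 (0.12), Per1 (0.10), Adra1a (-0.0559), Adra1d (-0.23) and Nnat (0.31) turned. Sik1 also turned with RLE (0.00108), no filter (0.00891), WT only (0.0182), limma-voom (0.0923) and DESeq2 without independent filtering (0.00311). The cause was not tested.
Leaving out 1 library gave -0.316 to 0.0915 for Arl4c, -0.206 to 0.0602 for Ppp1r15a, -0.185 to 0.138 for Sik1, -0.197 to 0.0898 for Per1 and -0.00748 to 0.341 for Adra1d. Leaving out 1 library also moved these by over 1.5 times, at the value nearest 0: Jun to -0.0171, Dusp1 to -0.0870, Ppargc1a to 0.169, Adrb3 to -0.181, Esrrg to 0.291, Adra1a to 0.0362, Flt1 to -0.152, Nnat to -0.00138 and Chrm3 to -0.254. In library properties (DCZ minus saline) it gave 1.152 to 2.279 M total counts, where without WT saline 11 the unadjusted exact permutation p was 0.0476, -0.0600 to 0.740 percentage points pseudoaligned, -1.16 to 0.506 mitochondrially encoded, -0.005224 to 0.000164 muscle and -0.0167 to 0.00602 haemoglobin.
Chrm3, at 0 to 5 reads per WT library, is limited by depth.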
